A study of Homo sapiens with 2 samples.

Results

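The genes considered here encode enzymes that add or remove methyl groups on histones and DNA, together with the deacetylases of histones and other proteins. They were taken by symbol, as those that begin with KDM, KMT, HDAC, SIRT, SETD, DNMT or TET followed by a digit, with 15 further genes named one by one: the Polycomb genes EZH1, EZH2, EED and SUZ12, the methyltransferase genes DOT1L, NSD1, NSD2, NSD3, SUV39H1, SUV39H2, EHMT1 and EHMT2, and the arginine methyltransferase genes PRMT1, PRMT5 and CARM1. This gave 73 of the 13017 genes listed for each library. Total RNA was sequenced from breast cancer cells, a human line that the labels name by the number 468. One culture was transfected with the Smart Silencer product against the antisense RNA THAP7-AS1, a blend of siRNAs and antisense oligonucleotides, and harvested after 48 h. The other received the negative control si-NC. Both cultures grew in L15 medium, and the groups were read from the genotype label, since under treatment both samples carry the name of the silencer. There was 1 library per group, so no difference below has a replicate check or a p-value, and each value describes these 2 libraries only.

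Histone methylation is read by position: methylation of lysine 4 of histone H3 (H3K4) and of H3K36 marks active genes, whereas methylation of H3K9 and H3K27 marks silent chromatin. Writers transfer the methyl group from S-adenosylmethionine, and erasers of the KDM families remove it by oxidation. DNA is methylated at CpG sites by DNMT enzymes and demethylated through the TET oxidases, and HDAC enzymes and sirtuins take acetyl groups off lysines, the sirtuins at the cost of NAD+.

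All values are FPKM, the authors' fragments per kilobase of gene, scaled to the fragments of the library. Ratios are log2((knockdown FPKM + 1)/(control FPKM + 1)), which understate the difference of low genes. Averaged over both libraries, 69 of the 73 genes reached 1 FPKM, and KDM4D, HDAC9, KDM8 and SIRT4 lay under it. In place of a test, a difference of at least 2-fold, or for these genes also of 1.5-fold, was used, and read against the share of all 10925 genes above the same filter that differed as much. In RNA from whole cultures, fewer cells of a kind and less RNA per cell cannot be told apart.

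None of the 69 genes was 2-fold apart in either direction, where 0.604% of all genes exceeded 2-fold upward after knockdown and 0.668% downward. At 1.5-fold, KDM6B and SETD7 were higher in the knockdown library and 0 genes were lower, where 2.98% of all genes were that much higher and 2.46% that much lower. The median log2 ratio of the 69 genes was 0.021, with 39 above 0 and 30 below, against a median of 0.015 over all genes. The SD of the ratios over the members was 0.23, against 0.31 over all genes. The levels themselves spanned a wide range, with DNMT1 the most abundant, then EZH2, HDAC1, KDM1A and HDAC2, and KDM4D the least abundant at 0.221 FPKM after knockdown and 0.226 FPKM with si-NC. The genes were together at 744 FPKM after knockdown and 705 FPKM with si-NC.

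**Figure D1:**
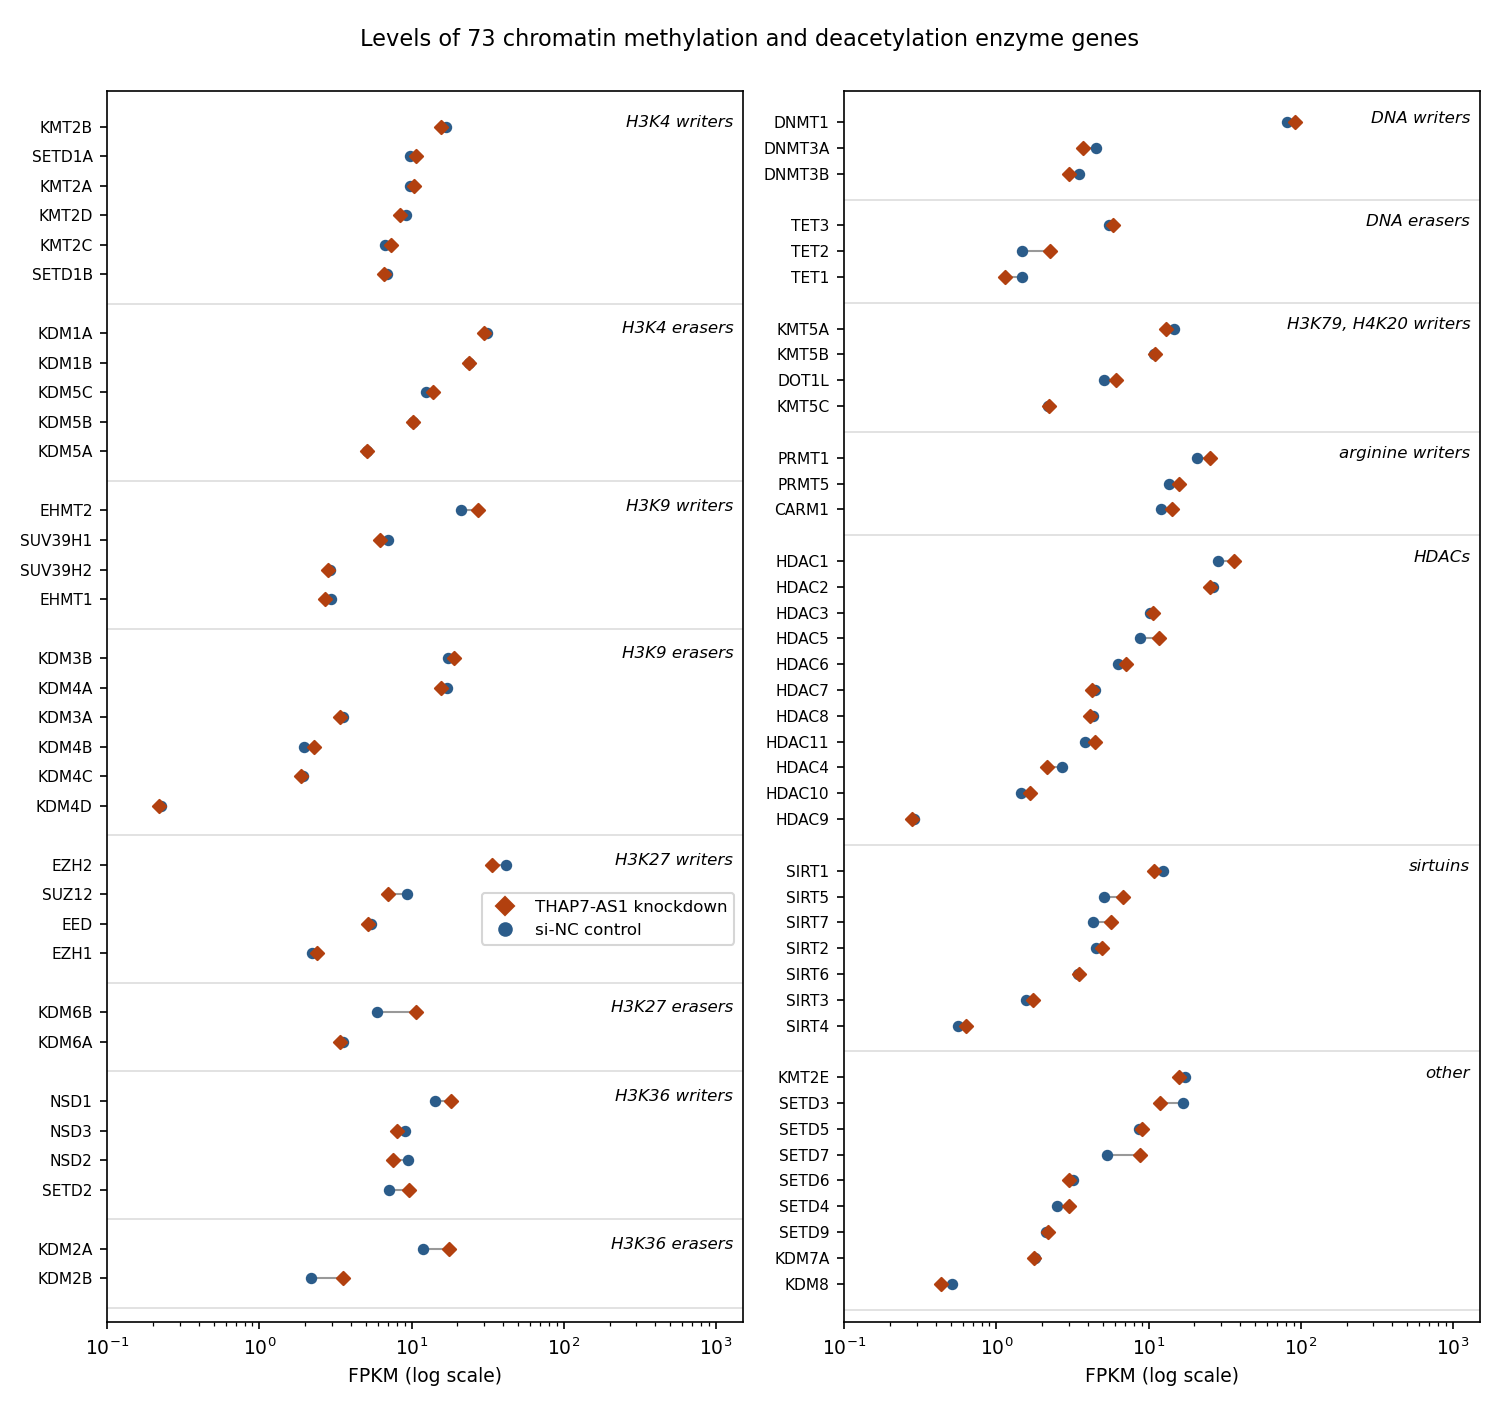
FPKM of each of the 73 genes on a log axis, grouped by mark and role, with diamonds for the THAP7-AS1 knockdown library and circles for the si-NC control library. The widest gaps belong to KDM6B, at 10.7 FPKM after knockdown and 5.89 FPKM with si-NC, and SETD7, at 8.84 FPKM after knockdown and 5.30 FPKM with si-NC, both higher in the knockdown library. KDM4A to KDM4C, which act on H3K9 and H3K36, are drawn once, under H3K9.

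At H3K27, the writers EZH2 and SUZ12 were lower and the eraser KDM6B higher after knockdown. The writer and eraser medians lay farther apart than at the other marks, an order that ended once KDM7A was counted as an eraser of H3K27. The writer of H3K27 methylation is Polycomb repressive complex 2 (PRC2), in which EZH2 or EZH1 is the catalytic subunit and EED and SUZ12 hold the complex together. Promoter windows of these genes and of the erasers KDM6A and KDM6B are shown because the H3K27 comparison rests on these 6 genes. The windows run from 250 bases before to 50 after the transcript start, from RefSeq on GRCh38.p14, and only the first listed window of EZH2 and KDM6B is given. Capitals mark the words TTTCCCGC, TTTGGCGC, TTTCGCGC and TTTGCCGC on either strand, which are forms of the site recognised by E2F, the cell cycle transcription factor.
EZH2, chr7:148884242-148884541, strand minus: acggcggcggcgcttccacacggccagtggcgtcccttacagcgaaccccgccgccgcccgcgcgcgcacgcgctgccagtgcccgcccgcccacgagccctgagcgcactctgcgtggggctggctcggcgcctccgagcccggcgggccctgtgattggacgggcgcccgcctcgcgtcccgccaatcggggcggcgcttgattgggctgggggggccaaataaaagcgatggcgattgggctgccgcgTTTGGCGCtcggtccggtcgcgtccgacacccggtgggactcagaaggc
SUZ12, chr17:31936757-31937056, strand plus: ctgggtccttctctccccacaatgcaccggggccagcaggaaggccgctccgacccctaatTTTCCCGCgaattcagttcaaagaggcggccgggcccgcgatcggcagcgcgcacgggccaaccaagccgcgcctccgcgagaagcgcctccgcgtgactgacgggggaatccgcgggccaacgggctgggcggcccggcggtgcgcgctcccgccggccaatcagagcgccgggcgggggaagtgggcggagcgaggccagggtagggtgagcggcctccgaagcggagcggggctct
EED, chr11:86244503-86244802, strand plus: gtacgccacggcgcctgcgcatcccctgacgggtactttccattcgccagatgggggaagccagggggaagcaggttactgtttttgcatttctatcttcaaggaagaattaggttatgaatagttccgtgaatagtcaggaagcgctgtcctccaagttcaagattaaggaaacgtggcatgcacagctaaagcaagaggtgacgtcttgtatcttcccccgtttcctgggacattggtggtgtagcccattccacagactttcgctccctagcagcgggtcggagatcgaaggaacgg
EZH1, chr17:42744991-42745290, strand minus: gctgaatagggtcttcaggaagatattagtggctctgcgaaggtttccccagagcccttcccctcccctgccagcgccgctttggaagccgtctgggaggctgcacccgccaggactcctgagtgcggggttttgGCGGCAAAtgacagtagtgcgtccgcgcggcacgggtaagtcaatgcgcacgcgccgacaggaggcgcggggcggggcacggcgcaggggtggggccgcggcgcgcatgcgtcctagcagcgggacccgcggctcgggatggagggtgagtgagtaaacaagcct
KDM6B, chr17:7833967-7834266, strand plus: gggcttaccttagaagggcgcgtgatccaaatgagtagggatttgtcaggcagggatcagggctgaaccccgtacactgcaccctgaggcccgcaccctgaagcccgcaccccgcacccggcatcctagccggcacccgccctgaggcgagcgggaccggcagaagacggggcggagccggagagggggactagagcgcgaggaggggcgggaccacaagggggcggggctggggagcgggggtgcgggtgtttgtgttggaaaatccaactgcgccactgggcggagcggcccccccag
KDM6A, chrX:44872938-44873237, strand plus: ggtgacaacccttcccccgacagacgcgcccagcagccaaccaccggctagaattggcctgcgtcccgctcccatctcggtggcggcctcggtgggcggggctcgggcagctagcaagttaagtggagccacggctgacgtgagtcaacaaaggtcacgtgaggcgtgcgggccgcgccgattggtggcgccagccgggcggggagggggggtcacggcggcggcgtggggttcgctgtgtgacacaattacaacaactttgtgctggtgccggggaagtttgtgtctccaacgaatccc

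One such word stood in the windows shown for EZH2, SUZ12 and EZH1, and 0 in those shown for EED, KDM6B and KDM6A. Over all 35116 RefSeq windows, 3.31% held one, and 7 of the 109 windows of the 68 members that RefSeq matched did. The GC box GGGCGG, on either strand, stood 5 times in the KDM6B window, 4 times in that of EZH2, 3 times in SUZ12, 2 times in KDM6A, 1 time in EZH1 and 0 times in EED. It stood in 45.0% of all windows and in 76 of the 109 member windows, 69.7%. The word CCAAT, on either strand, stood 4 times in the EZH2 window, 2 times in KDM6A and 1 time each in SUZ12 and EED. It stood in 34.6% of all windows and in 37 of the 109 member windows, 33.9%. The EED window had 16 CpG sites, against 46 in EZH2, 40 in SUZ12 and 30 in EZH1. These matches describe letters only.

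Of the PRC2 genes, EZH2 was at 33.7 FPKM after knockdown and 41.7 FPKM with si-NC, a log2 ratio of -0.30. SUZ12 was at 6.98 FPKM after knockdown and 9.26 FPKM with si-NC, with a ratio of -0.36. Both were lower in the knockdown library, and 6.37% of all genes had a ratio as low as that of SUZ12 or lower, and 9.03% one as low as that of EZH2. The other PRC2 genes were closer to equal. EED was at 5.18 FPKM after knockdown and 5.44 FPKM with si-NC, a ratio of -0.058, and EZH1 at 2.38 FPKM after knockdown and 2.21 FPKM with si-NC, a ratio of 0.075. EZH2 was thus 14.1 times as abundant as its homologue EZH1 after knockdown and 18.9 times with si-NC, per length. Pseudogenes named after EZH2, EED and SUZ12 exist, and reads of near-identical copies may have been divided among them, so these values are uncertain to that extent. Transcripts of EZH2, KMT5A and UHRF1 are known to follow the cell cycle. A list of 16 proliferation markers had a median log2 ratio of -0.12, against 0.015 over all genes. Of the 16, 11 lay below 0 and 5 above, where 5119 of all 10925 genes lay below 0. RRM2 was the lowest at 24.4 FPKM after knockdown and 47.0 FPKM with si-NC, and MKI67 the highest at 20.2 FPKM after knockdown and 15.5 FPKM with si-NC. The markers thus went both ways, and the part of the cell cycle in the values of EZH2, SUZ12, KMT5A and UHRF1 was not tested.

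KDM6B (JMJD3), an inducible H3K27 demethylase, was at 10.7 FPKM after knockdown and 5.89 FPKM with si-NC, a log2 ratio of 0.77 and the largest in either direction among the 69 genes. On the FPKM + 1 scale this was 1.70-fold, and 1.41% of all genes had a ratio at least as high. The spread of all genes at its level, taken as an SD from the median absolute deviation (MAD) over genes of 5 to 10 FPKM, was 0.22. KDM6A (UTX), the X-linked enzyme for the same mark, was at 3.38 FPKM after knockdown and 3.52 FPKM with si-NC. KDM6B was therefore 3.17 times as abundant as KDM6A after knockdown and 1.67 times with si-NC.

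Summed per length, the H3K27 writers were at 48.2 FPKM after knockdown and 58.6 FPKM with si-NC, and the erasers at 14.1 FPKM after knockdown and 9.41 FPKM with si-NC. The ratio of writer to eraser sums was 3.42 after knockdown and 6.23 with si-NC. With the catalytic subunits EZH1 and EZH2 alone it was 2.55 after knockdown and 4.67 with si-NC. The writer median minus the eraser median was -0.54 on the log2 scale, and with 2 erasers the eraser median is the midpoint of KDM6A and KDM6B. KDM7A, which also acts on H3K27 and H3K9, was at 1.77 FPKM after knockdown and 1.79 FPKM with si-NC. With the broader lists that add it to the erasers the H3K27 difference was -0.17. This was smaller in size than the -0.23 at DNA CpG sites, which these lists did not change. The H3K27 difference was also smaller than the -0.20 at H3K36, but the broader lists changed the H3K36 value too, from -0.059.

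**Figure D2:**
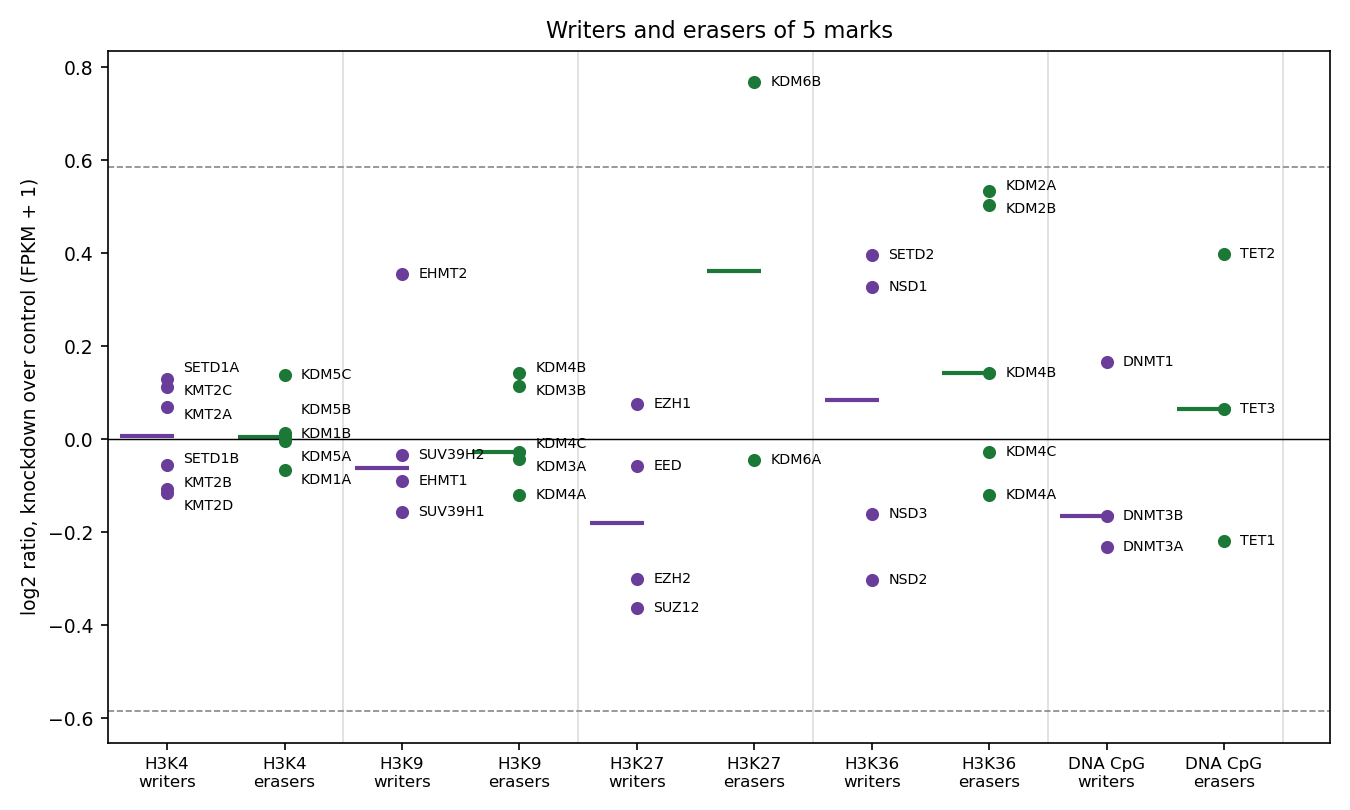
Log2 ratio of knockdown over control FPKM + 1 for each writer (purple) and eraser (green) of 5 marks with a mean of at least 1 FPKM. Short bars are medians and dashed lines mark 1.5-fold. Only KDM6B lies beyond a dashed line, and EZH2 and SUZ12 lie at -0.30 and -0.36 among the H3K27 writers.

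At H3K36, the erasers KDM2A and KDM2B were higher in the knockdown library while the writers diverged. KDM2A, a demethylase that binds unmethylated CpG through its CXXC domain, was at 17.7 FPKM after knockdown and 11.9 FPKM with si-NC, a log2 ratio of 0.53. KDM2B, named after its values were seen, its homologue and a subunit of a variant Polycomb complex, was at 3.52 FPKM after knockdown and 2.19 FPKM with si-NC. On the FPKM + 1 scale both lay under 1.5-fold, KDM2B at 1.42-fold. With a pseudocount of 0.1 KDM2B passed it at 1.58-fold. On the FPKM + 1 scale 3.73% of all genes had a ratio at least as high as that of KDM2A and 4.27% one at least as high as that of KDM2B. Exons of KDM2B overlap those of RNF34 on the opposite strand, and the strandedness of the libraries is not given in the sources used here, so reads of the pair cannot be told apart. KDM4A, an eraser of both H3K9 and H3K36, went slightly the other way at 15.6 FPKM after knockdown and 17.0 FPKM with si-NC, with a ratio of -0.12, and KDM4B was at 2.28 FPKM after knockdown and 1.97 FPKM with si-NC, with a ratio of 0.14. KDM4C was nearly equal at 1.87 FPKM after knockdown and 1.93 FPKM with si-NC.

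Among the H3K36 writers, SETD2, the enzyme of H3K36 trimethylation on transcribed genes, was at 9.65 FPKM after knockdown and 7.10 FPKM with si-NC, a log2 ratio of 0.40. NSD1, which makes the dimethyl mark and is the most abundant of the writers, was at 18.1 FPKM after knockdown and 14.2 FPKM with si-NC, a ratio of 0.33. Its homologues lay on the other side, NSD2 at 7.50 FPKM after knockdown and 9.48 FPKM with si-NC and NSD3 at 8.01 FPKM after knockdown and 9.06 FPKM with si-NC. NSD1 was 2.41 times as abundant as NSD2 after knockdown and 1.5 times with si-NC. Taken as lists, writers and erasers differed little, with a writer median minus eraser median of -0.059 on the log2 scale. That difference ran from -0.20 with the broader lists to 0.014 with a pseudocount of 5, so neither its size nor its sign was settled. The writers summed to 43.2 FPKM after knockdown and 39.9 FPKM with si-NC, and the erasers to 41.0 FPKM after knockdown and 35.0 FPKM with si-NC.

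**Figure D3:**
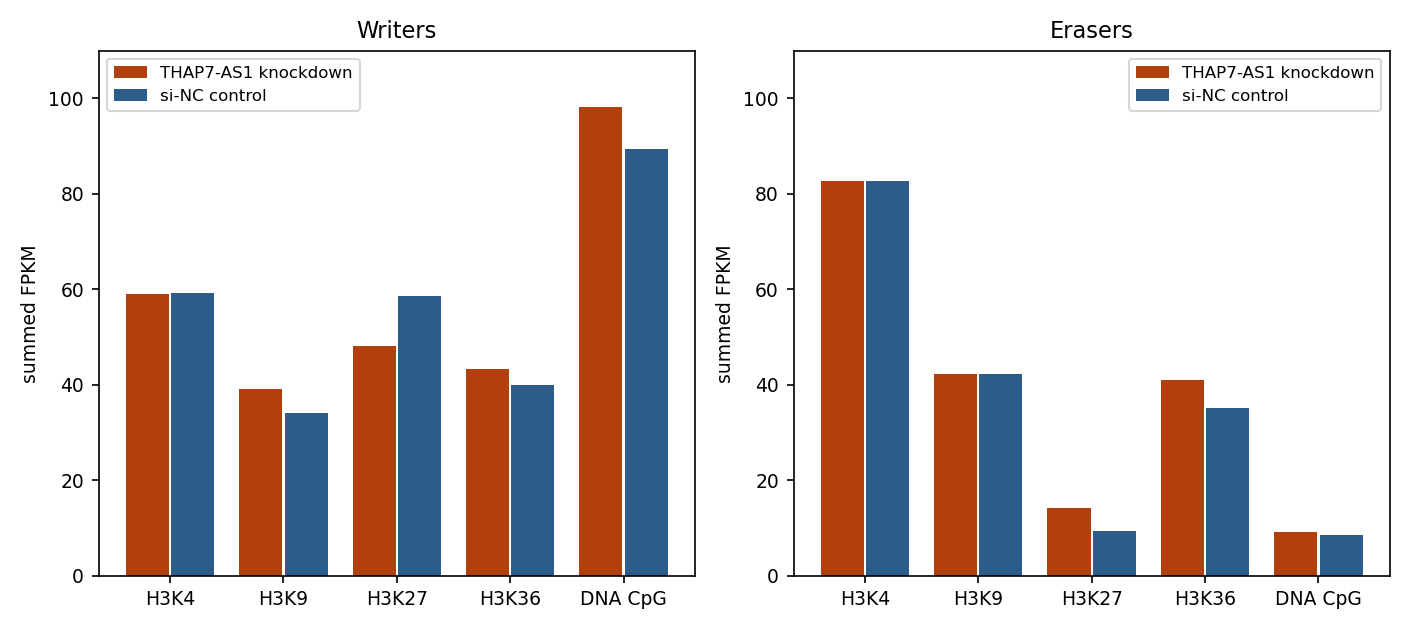
Summed FPKM of the writers (left panel) and erasers (right panel) of 5 marks in the knockdown library (left bar of each pair) and the control library (right bar), from 1 library each. Members with a mean under 1 FPKM are included, and KDM4A to KDM4C count for both H3K9 and H3K36. At H3K27 the writers are lower and the erasers higher in the knockdown library.

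The H3K4 enzymes were nearly equal between the libraries. The 6 writers, all catalytic subunits of COMPASS complexes, had log2 ratios between -0.12 and 0.13 with a median of 0.0069, and the 5 erasers ratios between -0.067 and 0.14 with a median of 0.0052. SETD1A was at 10.7 FPKM after knockdown and 9.72 FPKM with si-NC, a ratio of 0.13, and KMT2B, the most abundant writer, at 15.6 FPKM after knockdown and 16.9 FPKM with si-NC, a ratio of -0.11. The other writers were KMT2A at 10.3 FPKM after knockdown and 9.82 FPKM with si-NC, KMT2D at 8.42 FPKM after knockdown and 9.22 FPKM with si-NC, KMT2C at 7.31 FPKM after knockdown and 6.69 FPKM with si-NC and SETD1B at 6.62 FPKM after knockdown and 6.92 FPKM with si-NC. KDM1A (LSD1), the flavin-dependent demethylase of the CoREST complex, was the most abundant eraser at 29.7 FPKM after knockdown and 31.2 FPKM with si-NC, a ratio of -0.067. Its homologue KDM1B was at 23.9 FPKM after knockdown and 23.8 FPKM with si-NC. Of the KDM5 family, which removes the trimethyl mark, KDM5C was at 13.8 FPKM after knockdown and 12.5 FPKM with si-NC, a ratio of 0.14, KDM5B at 10.2 FPKM after knockdown and 10.1 FPKM with si-NC and KDM5A at 5.09 FPKM after knockdown and 5.11 FPKM with si-NC. The writers summed to 59.0 FPKM after knockdown and 59.2 FPKM with si-NC, and the erasers to 82.8 FPKM after knockdown and 82.7 FPKM with si-NC, so this mark had more eraser than writer transcript per length in both libraries.

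At H3K9, EHMT2 (G9a), a writer of the mono- and dimethyl mark in euchromatin, stood apart from the others. It was at 27.4 FPKM after knockdown and 21.2 FPKM with si-NC, a log2 ratio of 0.36, and 8.92% of all genes had a ratio at least as high. Its partner EHMT1 (GLP) was at 2.71 FPKM after knockdown and 2.95 FPKM with si-NC. EHMT2 was 10.1 times as abundant as EHMT1 after knockdown and 7.19 times with si-NC. The trimethylating enzymes of heterochromatin, SUV39H1 and SUV39H2, were at 6.22 FPKM after knockdown and 7.05 FPKM with si-NC and at 2.82 FPKM after knockdown and 2.91 FPKM with si-NC, both a little lower in the knockdown library. Of the erasers, KDM3B was the most abundant at 19.0 FPKM after knockdown and 17.5 FPKM with si-NC, a ratio of 0.11, and KDM3A, a hypoxia-inducible gene, was at 3.40 FPKM after knockdown and 3.53 FPKM with si-NC. The writer median minus the eraser median was -0.034, and its sign changed with the filter on low values and when means replaced medians.

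The DNA methylation enzymes were dominated by DNMT1, which copies methylation onto the new strand after replication. It was at 91.5 FPKM after knockdown and 81.4 FPKM with si-NC, a log2 ratio of 0.17. Exons of S1PR2, which is also listed, overlap those of DNMT1 on the same strand. The de novo enzymes were both lower in the knockdown library, DNMT3A at 3.70 FPKM after knockdown and 4.52 FPKM with si-NC, a ratio of -0.23, and DNMT3B at 2.98 FPKM after knockdown and 3.47 FPKM with si-NC. DNMT1 was accordingly 24.7 times as abundant as DNMT3A after knockdown and 18.0 times with si-NC. The oxidases diverged, with TET2 at 2.27 FPKM after knockdown and 1.48 FPKM with si-NC, a ratio of 0.40, TET1 at 1.13 FPKM after knockdown and 1.48 FPKM with si-NC and TET3, the most abundant, at 5.83 FPKM after knockdown and 5.53 FPKM with si-NC, a ratio of 0.064. TET1 and TET2 were nearly equal in the control library, at a ratio of levels (TET2 over TET1) of 0.999, whereas TET2 was 2.0 times as abundant in the knockdown library. Both are low genes, with means of 1.31 and 1.87 FPKM, and the spread of all genes at 1 to 2 FPKM was 0.25.

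Arginine, H4K20 and H3K79 methylation had writers only in this gene set. The 3 arginine methyltransferase genes of this set were higher in the knockdown library, where 53.1% of all genes were: PRMT1, the main enzyme of asymmetric dimethylation, at 25.3 FPKM after knockdown and 20.9 FPKM with si-NC with a log2 ratio of 0.26, PRMT5, which makes the symmetric form, at 15.9 FPKM after knockdown and 13.7 FPKM with si-NC, and CARM1 (PRMT4), a coactivator enzyme, at 14.3 FPKM after knockdown and 12.1 FPKM with si-NC. Ratios at least as high as those of PRMT1, CARM1 and PRMT5 were held by 14.5%, 17.8% and 20.3% of all genes. Further genes of this family are counted below among the other protein methyltransferases. Exons of PRMT1 overlap those of the listed gene ADM5 and exons of CARM1 those of YIPF2. Of the H4K20 writers, KMT5A, which makes the monomethyl mark around mitosis, was at 12.9 FPKM after knockdown and 14.6 FPKM with si-NC, a ratio of -0.16, and has 3 named pseudogenes. KMT5B and KMT5C, which add further methyl groups, were at 11.0 FPKM after knockdown and 10.8 FPKM with si-NC and at 2.21 FPKM after knockdown and 2.19 FPKM with si-NC. DOT1L, the only H3K79 writer, was at 6.14 FPKM after knockdown and 5.08 FPKM with si-NC, a ratio of 0.23, with exons that overlap those of PLEKHJ1 on the opposite strand.

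The deacetylase genes lay near equality between the libraries. Of those above the filter, 6 of 10 HDAC genes and 5 of 6 sirtuin genes had a log2 ratio above 0, where 53.1% of all genes did, and 6 of 10 and 4 of 6 lay above the median of all genes, 0.015. No deacetylase gene reached 1.5-fold. In class I, the nuclear enzymes of the SIN3, NuRD, CoREST and NCOR complexes, HDAC1 was at 36.5 FPKM after knockdown and 28.7 FPKM with si-NC, a log2 ratio of 0.34, while its close homologue HDAC2 was at 25.5 FPKM after knockdown and 26.4 FPKM with si-NC. HDAC1 was 1.43 times as abundant as HDAC2 after knockdown and 1.08 times with si-NC. HDAC1 has 2 named pseudogenes. HDAC3, the NCOR enzyme, was at 10.8 FPKM after knockdown and 10.2 FPKM with si-NC and HDAC8, which deacetylates cohesin, at 4.10 FPKM after knockdown and 4.32 FPKM with si-NC.

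The class IIa enzymes, which shuttle between nucleus and cytoplasm and have weak deacetylase activity of their own, lay on both sides of equality. A ratio at least as high as that of HDAC5 was held by 7.79% of all genes, and one as low as that of HDAC4 or lower by 13.7%. HDAC5 was at 11.7 FPKM after knockdown and 8.75 FPKM with si-NC, a log2 ratio of 0.38, HDAC4 at 2.17 FPKM after knockdown and 2.72 FPKM with si-NC and HDAC7 at 4.25 FPKM after knockdown and 4.46 FPKM with si-NC, while HDAC9 stayed under the filter at 0.281 FPKM after knockdown and 0.289 FPKM with si-NC. HDAC6, the tubulin deacetylase, was at 7.11 FPKM after knockdown and 6.31 FPKM with si-NC, a ratio of 0.15, HDAC10, a polyamine deacetylase, at 1.66 FPKM after knockdown and 1.46 FPKM with si-NC, and HDAC11, a defatty-acylase, at 4.41 FPKM after knockdown and 3.82 FPKM with si-NC, a ratio of 0.17.

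Of the sirtuins, SIRT1, the main nuclear enzyme, was the only one above the filter that was lower in the knockdown library, at 10.8 FPKM after knockdown and 12.4 FPKM with si-NC, a log2 ratio of -0.18. SIRT7, a nucleolar enzyme, was at 5.67 FPKM after knockdown and 4.32 FPKM with si-NC, with exons that overlap those of MAFG, and SIRT6 at 3.49 FPKM after knockdown and 3.46 FPKM with si-NC. SIRT2, mostly cytosolic, was at 4.91 FPKM after knockdown and 4.53 FPKM with si-NC, a ratio of 0.096. Of the mitochondrial sirtuins, SIRT5, which removes succinyl and malonyl groups, was at 6.74 FPKM after knockdown and 5.09 FPKM with si-NC, a ratio of 0.35. SIRT3 was at 1.74 FPKM after knockdown and 1.56 FPKM with si-NC, and 33.6% of all genes had a ratio at least as high. SIRT4 was under the filter, at 0.636 FPKM after knockdown and 0.561 FPKM with si-NC, too low to give a direction.

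Apart from KDM7A, given above with H3K27, the remaining genes act mainly on other substrates or lack a settled histone target, and all of these but KDM8 carry a SET domain. SETD7, which methylates H3K4 in vitro and many other proteins, was at 8.84 FPKM after knockdown and 5.30 FPKM with si-NC, a log2 ratio of 0.64, the second largest of the 69, and 2.30% of all genes had a ratio at least as high. SETD3, the actin histidine methyltransferase, named after its values were seen, was at 11.8 FPKM after knockdown and 16.9 FPKM with si-NC, the lowest ratio of the 69 at -0.48, and 3.79% of all genes had one as low or lower. KMT2E, a member of the MLL family without known methyltransferase activity and the most abundant of these genes, was at 15.9 FPKM after knockdown and 17.3 FPKM with si-NC, a ratio of -0.11. SETD5 was at 9.05 FPKM after knockdown and 8.69 FPKM with si-NC, SETD4 at 2.98 FPKM after knockdown and 2.49 FPKM with si-NC, SETD6, an enzyme for the RELA subunit of NF-kB, at 3.02 FPKM after knockdown and 3.19 FPKM with si-NC and SETD9 at 2.19 FPKM after knockdown and 2.12 FPKM with si-NC. KDM8, a JmjC oxygenase, was at 0.429 FPKM after knockdown and 0.509 FPKM with si-NC.

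**Figure D4:**
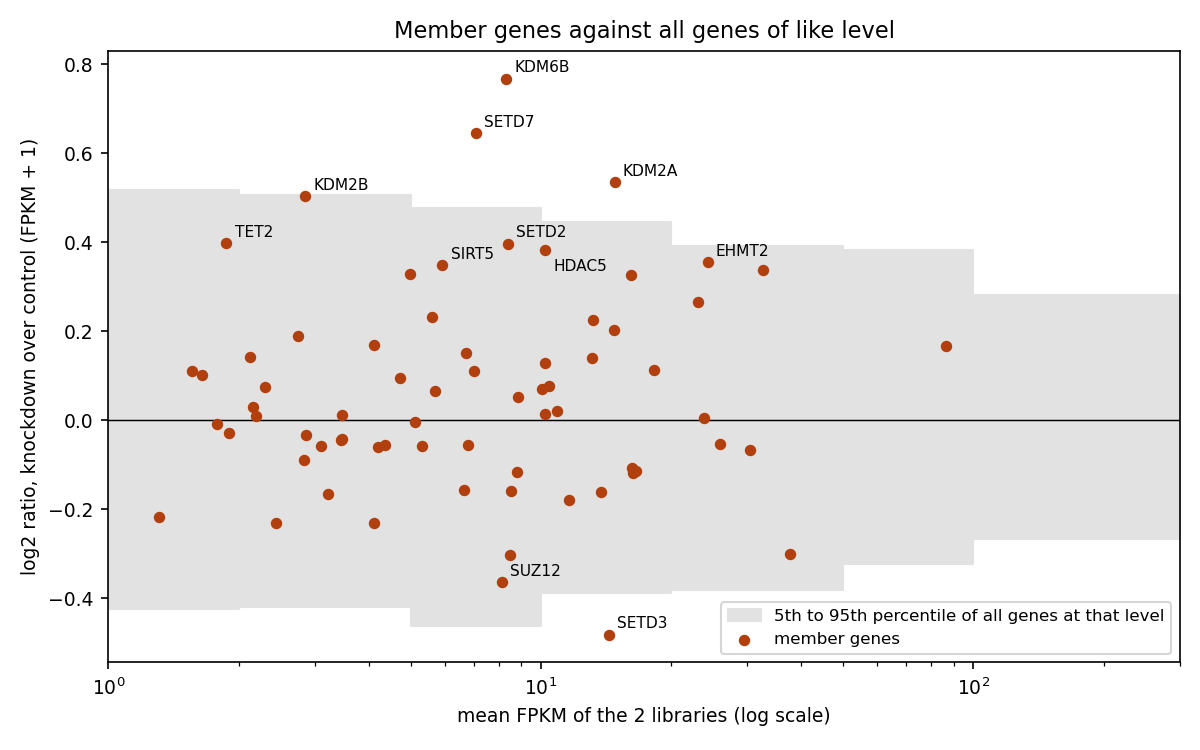
Log2 ratio of knockdown over control FPKM + 1 against the mean FPKM of the 2 libraries on a log axis for the 69 genes, over the range from the 5th to the 95th percentile of all genes in 7 bins of level. KDM6B, SETD7 and KDM2A lie above that range and SETD3 below it.

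Set against all genes of like level, 3 of the 69 genes lay above the 95th percentile and 1 below the 5th percentile, which by construction hold 5% of all genes each. Of the 69 genes, 5 differed by more than 2 MAD-based SDs of their level, 7.25%, against 10.9% of all genes. The 69 genes were thus no more spread between the libraries than other genes.

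Partners, readers and opposing enzymes were counted in the same way, in 10 lists, against the same 2.98% of all genes at least 1.5-fold higher and 2.46% lower. With lists this short, a single gene beyond 1.5-fold does not set a list apart from those shares. The core and partner subunits of the H3K4 COMPASS complexes had 0 of 13 genes 1.5-fold apart and a median log2 ratio of -0.049, and the accessory subunits of PRC2 0 of 7 and a median of -0.043, with a range of -0.38 to 0.28. In PRC1, the complex that ubiquitinates histone H2A, 1 of 18 was higher and 1 lower: PCGF6 at 5.67 FPKM after knockdown and 3.40 FPKM with si-NC, and PCGF3 at 3.70 FPKM after knockdown and 6.43 FPKM with si-NC, whose exons overlap other genes on the opposite strand. The partners of the HDAC complexes had 0 of 28 apart and a median of 0.023. The histone acetyltransferases, which write what the deacetylases erase, had 0 of 11 apart and a median of -0.023. Of these, 8 of 11 lay below 0, where 5119 of all 10925 genes did. The medians were 0.094 for the HDAC genes, 0.099 for the sirtuin genes and 0.015 over all genes. These medians lie closer together than the MAD-based SD of all genes, 0.21. That SD is a spread of single genes and not of list medians, so whether the medians differ was not tested.

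Among acetyl-lysine readers 1 of 13 was lower, BRPF3, a scaffold of the HBO1 acetyltransferase complex, at 10.9 FPKM after knockdown and 18.1 FPKM with si-NC. Among partners and readers of H3K9 methylation 1 of 11 was lower, CBX1, which encodes heterochromatin protein HP1 beta, at 29.8 FPKM after knockdown and 57.1 FPKM with si-NC, a log2 ratio of -0.92. Among partners and readers of DNA methylation 1 of 10 was lower, UHRF1, which guides DNMT1 to hemimethylated DNA, at 14.4 FPKM after knockdown and 23.0 FPKM with si-NC, a ratio of -0.64, beside the DNMT1 ratio of 0.17. The other protein methyltransferases had 0 of 13 apart and a median of 0.017, and the genes of methyl donor, NAD+ and acetyl-CoA supply 0 of 15 and a median of 0.016.

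**Figure D5:**
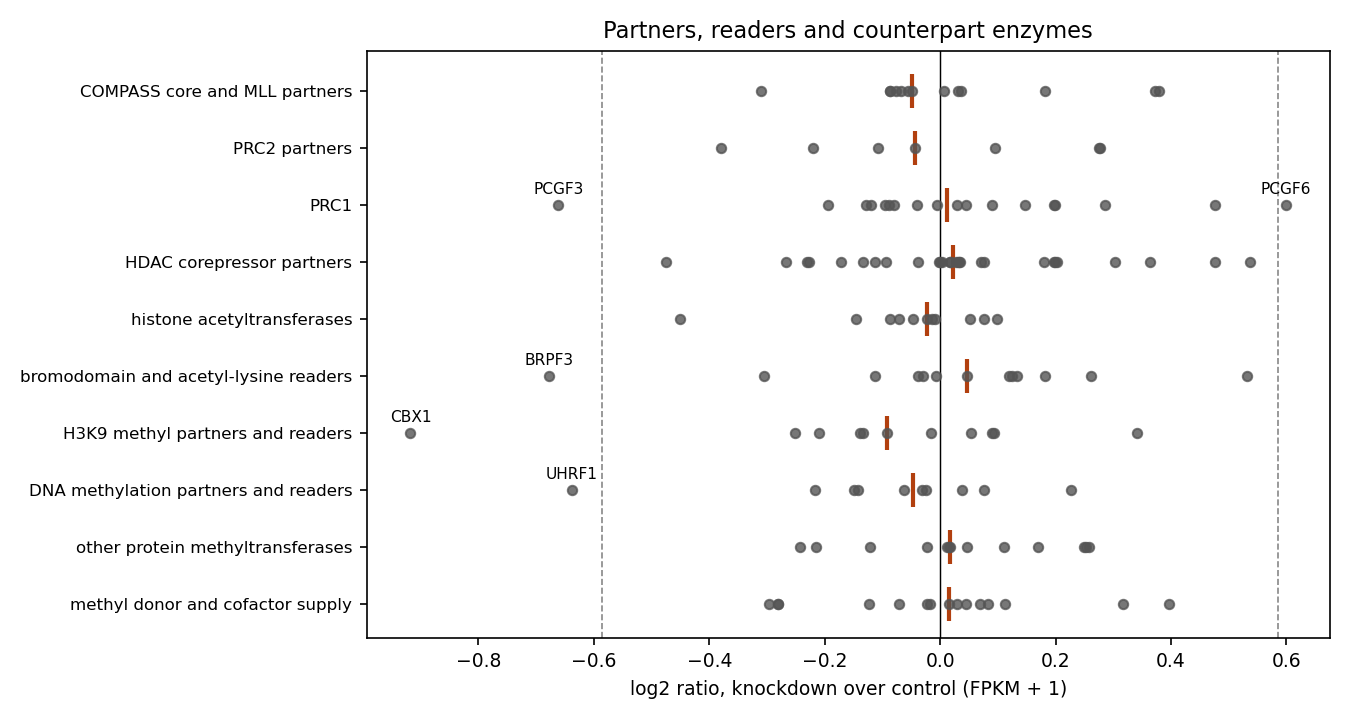
Log2 ratio of knockdown over control FPKM + 1 for the genes of 10 partner lists with a mean of at least 1 FPKM, with the list median as a short bar and dashed lines at 1.5-fold. The named genes are the 5 beyond 1.5-fold, of which CBX1 at -0.92 is farthest.

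The level of THAP7-AS1 itself is not analysed here and gave no check of the labels. Over all genes FPKM totalled 213442 after knockdown and 213888 with si-NC, and the smallest values of genes with a single transcript put the depth at about 11100000 fragments after knockdown and 10900000 with si-NC. At that depth the counting error of the KDM6B log2 ratio would be 0.073 to 0.21, depending on the transcript length taken, and covers counting only. All 10 breast epithelial markers were above the filter, with KRT19 at 1106 FPKM after knockdown and 1057 FPKM with si-NC, while 2 of 6 fibroblast markers were listed, COL1A1 at 0.866 FPKM after knockdown and 0.874 FPKM with si-NC and PDGFRB at 0.012 FPKM after knockdown and 0 with si-NC. Of the immune markers 2 of 5 were listed, with CD14 at 10.3 FPKM after knockdown and 9.50 FPKM with si-NC, and of the endothelial markers 1 of 4, KDR at 1.07 FPKM after knockdown and 1.15 FPKM with si-NC.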

How the data were processed

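RNA-seq tables of 2 libraries were used. The deposited values are FPKM, per the file headers, with 1 table a library. Per the submitters' processing notes, cutadapt, HISAT2 2.0.5 and StringTie were used with the build hg19; the sources used here give neither the annotation nor the strandedness nor the other versions. FPKM depends on the gene length taken and on the total of the library, so abundant genes can move the values of the rest. Symbols were found for 12746 of 13017 identifiers. GENCODE release 29, of another build, gave lengths and exon overlaps by identifier only. Exons of 38 of the 73 members overlap another annotated gene, 10 on the same strand, and 13 members have named pseudogenes.

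Log2 ratios used a pseudocount of 1 and genes that averaged 1 FPKM or more. With 1 library per group no test was possible, and 2-fold and 1.5-fold differences stood in for one. The depth is an estimate from FPKM times length between 80 and 100 in single-transcript genes, over 14 and 10 genes, with that window set after seeing the values. Fragments per gene were reckoned from the median transcript or from all exons. Members, lists, roles and tests were chosen with earlier results of these data known; the proliferation markers were added last. Genes given with a ratio are those past 1.5-fold, the core PRC2 genes, the writer and eraser of largest ratio for each mark and the most abundant gene of each class, with exceptions stated. Of each partner list, at most 2 genes past 1.5-fold are named. Alternatives changed the pseudocount, filter, scaling, fold and lists. Scripts ran under Python 3.11.15 with pandas 2.3.3, numpy 2.4.6 and matplotlib 3.10.9 and were tested on simulated data.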

Additional observations from a re-analysis of the deposited data

How the results depend on the processing

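With 1 library per group, nothing here measures the spread between cultures, and low genes are limited by depth. No paired analysis was possible because each group has 1 library. At 2-fold, 66 genes were higher and 73 lower after knockdown. A pseudocount of 0.1 gave 140 higher and 126 lower, and one of 5 gave 19 higher and 14 lower. A 5 FPKM filter, which tests fewer genes, gave 31 higher and 36 lower, and a 1.5-fold threshold 326 higher and 269 lower. The 2 members at least 1.5-fold higher, KDM6B and SETD7, became 0 with a pseudocount of 5, where their log2 ratios were 0.53 and 0.43, and 0 at 2-fold. The count was 3 with a pseudocount of 0.1, which adds KDM2B, and 2 under the filters, the scalings and the setting without members that overlap another gene, which was chosen after seeing the data. The H3K27 writer median minus eraser median, -0.54, was -1.07 with the 5 FPKM filter, which removes EZH1 and KDM6A. It was -0.17 with the broad lists, which add KDM7A, smaller in size than the -0.20 of H3K36 and the -0.23 of DNA CpG under the same lists. The broad lists changed the H3K36 difference as well, from -0.059, and left that of DNA CpG as it was. Under the other alternatives the H3K27 difference stayed between -0.59 and -0.40. The DNA CpG difference, -0.23, became 0.10 with the 5 FPKM filter, which leaves DNMT1 and TET3 alone. The median of the members ran from 0.0053 to 0.064 and the H3K4 difference from -0.012 to 0.0029. The H3K9 difference ran from -0.045 to 0.10 and the H3K36 difference from -0.20 to 0.014. All stayed within 0.21 of their reported values, the MAD-based SD of all genes, which is a spread of single genes and not of list medians. Of 218 values of the 32 members that the naming rule gives a ratio, 216 moved by less than the spread at their level, 2 moved by more and 0 changed sign. SETD3, named after its values were seen, was not among these 32.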
